A study of Mus musculus with 2 samples.

Results

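Keratins are the intermediate filament proteins of epithelial cells. A filament is built from pairs of an acidic type I chain and a basic type II chain, and each kind of epithelium makes its own pairs. Krt5 with Krt14 is the pair of basal layers, including the myoepithelial layer of the mammary gland, and Krt8 with Krt18 is the pair of simple epithelia, including the luminal layer of the gland. Further pairs mark suprabasal skin, the inner root sheath and the shaft of the hair.

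The keratin genes were chosen by symbol alone, as the genes whose GENCODE M21 symbol is Krt followed by a number and at most 1 letter. This gave 54 genes of 54438, 28 of type I and 26 of type II. Krt88, which is in none of the class lists used, was placed among type II by its position in the type II cluster of chromosome 15. The values come from 2 libraries of RNA labelled as mammary basal cells. The cells were flow-sorted, came from C57BL/6 mice of wild type genotype at 8 weeks, and were taken through a Smart-seq protocol, a full-length cDNA method for small inputs. The study set out to profile Pdl1+ and Pdl1- basal cells. The labels of the libraries differ only in their titles, W2 and W1, so neither was placed in a Pdl1 class, and the values describe 2 single libraries without replicates or tests. How many mice and cells were used, and with which gates, is not stated in the sources used here.

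Library W2 held 3800031 counted reads and library W1 held 3055839, as recovered from the deposited FPKM values. Before any keratin is considered, the libraries stood apart in cell type markers. Of 7 myoepithelial markers other than keratins, 6 were at 1 TPM or more in a library. All 6 passed 2-fold toward library W2 on the log2(TPM + 1) scale, 1 of them at 0 in library W1. The 7 summed to 25484 TPM in library W2 and 59.4 TPM in library W1. Over all genes compared in this way, 32.9% passed 2-fold toward library W2 and 34.7% toward library W1. Trp63, the gene of the basal regulator p63, had no reads in either library. It has 8 listed transcripts, and the counting rule for reads shared between transcripts is not given. Of 10 endothelial markers, 9 were at 1 TPM or more in a library. All 9 passed 2-fold toward library W1. A gene at 1 TPM or more in 1 library and at 0 in the other has to reach 2-fold. This held for 8 of the 9. The endothelial markers summed to 4.78 TPM in library W2, all of it Plvap, and 7296 TPM in library W1. Library W1 therefore goes against its basal label in these markers. Of 11 luminal markers, 9 were at 1 TPM or more in a library, and 7 of them passed 2-fold toward library W2, 1 toward library W1 and 1 neither way. They summed to 2816 TPM in library W2 and 295 TPM in library W1, and Elf5 and Prlr were at 0 in both. Of the 9 luminal genes compared, 3 were at 0 in library W1 and 1 was at 0 in library W2. Fibroblast markers summed to 206 TPM in library W2 and 3.19 TPM in library W1. Leukocyte markers summed to 7.17 TPM in library W2 and 88.7 TPM in library W1. In library W1 this was mostly Lyz2 (46.6 TPM) and Cd79a (32.8 TPM), with Ptprc at 0.345 TPM and Cd3e and Itgam at 0. Csf1r lay within 2-fold. Mesothelial markers summed to 19.9 TPM in library W2, all of it Upk1b, and to 0 in library W1. A single gene, Gm23935, took 4.13% of TPM in library W2 and 27.7% in library W1.

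Keratin transcripts were abundant in library W2 and close to absent from library W1. The family summed to 17996 TPM in library W2, against 6.88 TPM in library W1. In counted reads this was 88763 in library W2, or 2.34% of the library (95% exact Clopper-Pearson interval 2.32 to 2.35%), and 31 in library W1, or 0.00101% (0.00069 to 0.00144%). Intervals in this account reflect counting error alone, since reads of amplified cDNA without molecular identifiers are not independent molecules. In bulk RNA, fewer keratin-expressing cells and less keratin RNA per cell cannot be told apart, and the part that the other cell type markers above have in this difference was not tested.

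Of the 54 genes, 13 had a read in library W2. Among these, 6 also had a read in library W1, namely Krt17, Krt8, Krt14, Krt18, Krt19 and Krt10, and 7 had 0 reads there. The remaining 41 genes, 75.9% of the family, were listed at 0 in both, as were 71.0% of all 54438 genes. The 13 genes passed the filter of 1 TPM in at least 1 library, and all 13 lay past 2-fold toward library W2 on the log2(TPM + 1) scale, with 0 toward library W1. Over all 12587 genes that passed the filter, 32.9% lay past 2-fold toward library W2 and 34.7% toward library W1. The count of 13 carries a built-in part, because a gene at 1 TPM or more in library W2 and at 0 in library W1 has to reach 2-fold on this scale, which holds for 7 of the 13 keratins, and 34.7% of all compared genes were at 0 in 1 library. Of the 13, only Krt18 also reached 1 TPM in library W1. The others passed the filter through library W2 alone, which sets their direction in the count and in the median. The median log2 ratio of library W2 over library W1 was 7.26 over the 13 keratins and 0.07 over all compared genes.

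**Figure D1:**
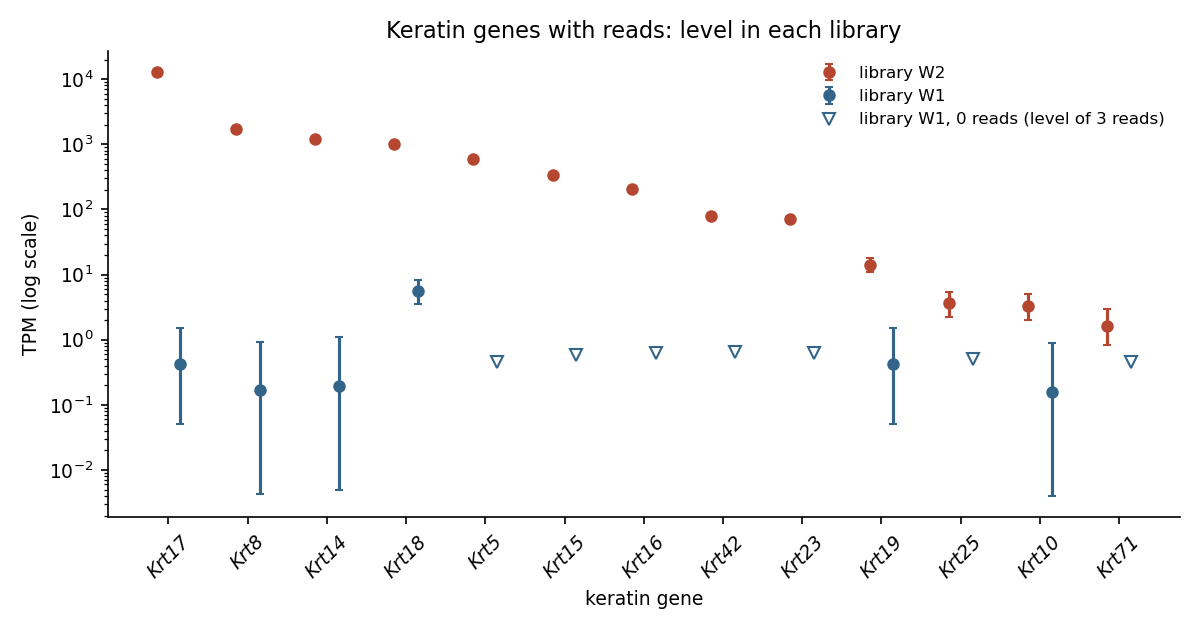
TPM of the 13 keratin genes with reads (vertical log axis), ordered by level, in library W2 (red) and library W1 (blue). Bars are 95% exact Poisson intervals on the reads and open triangles mark the level of 3 reads where library W1 had 0. Library W2 spans 1.65 to 12795 TPM, and the highest value of library W1 is 5.51 TPM, for Krt18.

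The stress and appendage keratin Krt17, a type I chain of hair follicles, glands and wounded epidermis, led the family. It stood at 12795 TPM in library W2, from 60537 reads, and at 0.426 TPM in library W1, from 2 reads. It was the 8th most abundant gene of library W2, and it made up 71.1% of keratin TPM there and 81.4% of type I TPM. The ratio of library W2 over library W1 was 30064 by TPM, with a counting interval of 8322 to 248257 that rests on the 2 reads of library W1. Krt16, another type I keratin of stressed epidermis, stood at 209 TPM in library W2 and at 0 in library W1. That is at least 331-fold higher in library W2 against a floor of 3 reads in library W1. Folds given as at least set the reads of library W2 over this floor. They leave out the counting error of library W2 and are not interval limits. Krt16 shares 382 of its 1516 50-base sequences with Gm11597, which was at 0 in both. The type II chains that pair with Krt16 and Krt17 in skin, Krt6a and Krt6b, were listed at 0 in both libraries, as was Krt75, a type II keratin of the hair companion layer. These stress and appendage keratins took 72.3% of keratin TPM in library W2.

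Krt17 shares sequence with its neighbours, which bears on how its reads could be assigned. Over the coding sequence it is identical to Krt14 at 84.7% of aligned bases, to Krt42 at 79.9% and to Krt16 at 78.2%. The 60 coding bases of Krt17 most alike in the other 3 genes are shown to make this sharing visible. They come from the GENCODE M21 transcripts and capitals mark bases that differ from Krt17.
Krt17 (coding bases 1108 to 1167): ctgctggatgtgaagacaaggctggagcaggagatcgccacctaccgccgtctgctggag
Krt14 (coding bases 1219 to 1278): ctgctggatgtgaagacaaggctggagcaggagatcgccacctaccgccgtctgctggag
Krt16 (coding bases 1195 to 1254): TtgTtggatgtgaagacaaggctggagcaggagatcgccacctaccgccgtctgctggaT
Krt42 (coding bases 1138 to 1197): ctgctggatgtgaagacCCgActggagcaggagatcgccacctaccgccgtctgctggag
Krt17 and Krt14 do not differ over this stretch, and Krt16 and Krt42 each differ from Krt17 at 3 of 60 bases. A 50-base read inside it would match Krt17 and Krt14 equally. Of the 1502 50-base sequences (50-mers) of the Krt17 transcript, however, 1442 occur in no other listed transcript.

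The basal layer keratins Krt14, Krt5 and Krt15 all had reads in library W2, and together they made up 11.9% of its keratin TPM. Krt14, the type I partner of Krt5, stood at 1205 TPM in library W2 from 6230 reads and at 0.194 TPM in library W1 from 1 read. Krt5, the type II chain of basal cells, stood at 585 TPM in library W2 from 3923 reads and at 0 in library W1, which is at least 1299-fold higher in library W2. Krt15, a type I chain of basal cells and hair follicle stem cells, stood at 343 TPM in library W2 from 1777 reads and at 0 in library W1, at least 588-fold higher in library W2. For Krt14 the ratio of library W2 over library W1 was 6188, with an interval of 1110 to 244451.

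The simple epithelial keratins made up 15.4% of keratin TPM in library W2. Krt8, the type II chain of simple epithelia, stood at 1691 TPM in library W2 from 10098 reads and at 0.169 TPM in library W1 from 1 read. Its partner Krt18 stood at 995 TPM in library W2 from 4361 reads and at 5.51 TPM in library W1 from 24 reads, a ratio of 180 with an interval of 121 to 282. Krt18 was the member with the most reads in library W1. Krt23, a type I chain of simple epithelia, stood at 72.5 TPM in library W2 and at 0 in library W1, at least 115-fold higher in library W2. Krt19, a type I keratin of luminal and other simple epithelia, stood at 14.1 TPM in library W2 from 68 reads and at 0.419 TPM in library W1 from 2 reads, a ratio of 33.8 with an interval of 9.0 to 285. Krt7 and Krt20 were listed at 0 in both. Beside these values, the luminal markers Epcam and Cldn3 stood at 1511 and 113 TPM in library W2, each listed at 0 in library W1, while Kit stood at 0 in library W2 and 25.5 TPM in library W1, and Esr1 at 0.36 TPM in library W2 and 1.25 TPM in library W1. Whether Krt8, Krt18 and Krt19 reads in library W2 came from basal or from luminal cells was not tested.

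The keratins of suprabasal skin and of hair were nearly all at 0. Of 13 suprabasal members only Krt10 had reads, with 3.29 TPM in library W2 from 21 reads and 0.158 TPM in library W1 from 1 read, a ratio of 20.9 with an interval of 3.35 to 863. Of 8 inner root sheath members, Krt25 had 3.63 TPM and 22 reads in library W2 and Krt71 had 1.65 TPM and 11 reads in library W2, each with 0 reads in library W1. Against the floor of 3 reads in library W1, Krt25 was 7.28-fold higher in library W2 and Krt71 was 3.64-fold higher. These folds leave out the counting error of the 22 and 11 reads. With a pseudocount of 5 TPM in place of 1, Krt10, Krt25 and Krt71 fell short of 2-fold, at log2 ratios of 0.68, 0.79 and 0.41. None of the 15 hair shaft keratins had a read in either library, and neither did any of the 58 keratin-associated protein genes, which encode the matrix of the hair shaft. Krt42, a type I gene next to Krt17 that has no clear functional label here, stood at 78.4 TPM in library W2 from 369 reads and at 0 in library W1, at least 122-fold higher in library W2. Among markers of cornified skin, Sprr1a stood at 466 TPM in library W2 and 0 in library W1. Lor stood at 1.66 TPM in library W2 and 0.742 TPM in library W1, and Flg, Ivl, Dsg1a and Krtdap were at 0 in both.

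The make-up of the keratin reads also differed between the libraries. Krt17 held 68.2% of the keratin reads of library W2 (67.9 to 68.5%), against 6.45% of those of library W1 (0.79 to 21.4%). Krt18 held 4.91% of the keratin reads of library W2 (4.77 to 5.06%), against 77.4% of those of library W1 (58.9 to 90.4%). Krt8 held 11.4% in library W2, against 3.23% in library W1 (0.08 to 16.7%). The intervals of the libraries are apart for Krt17 and for Krt18 and overlap for Krt8. The 31 keratin reads of library W1 set these limits.

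**Figure D2:**
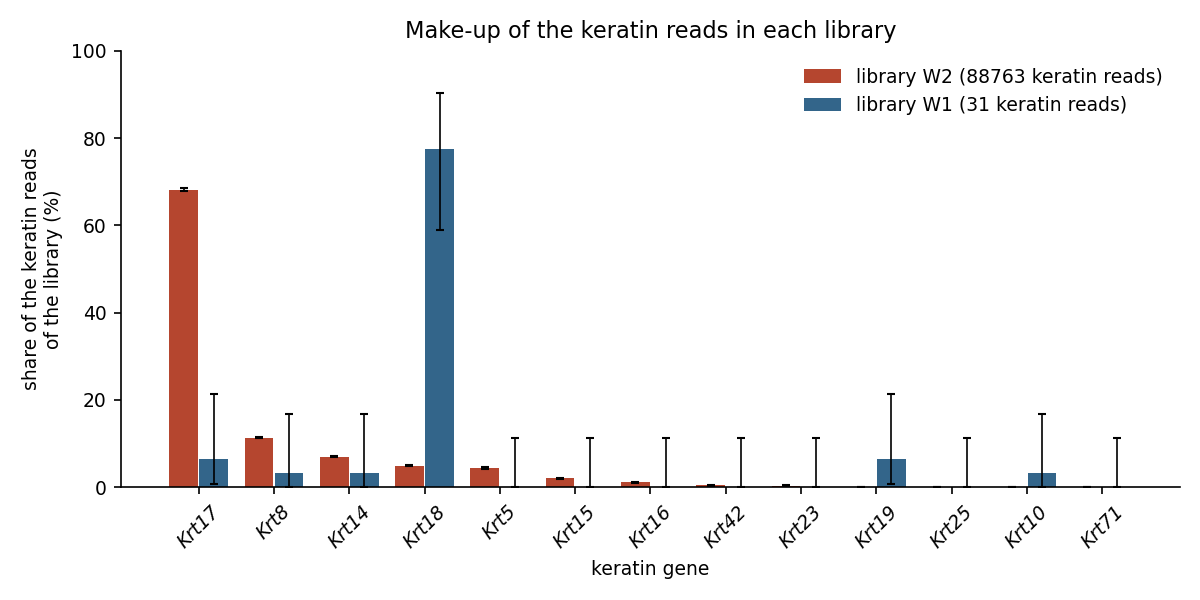
Share of each library's keratin reads that fell on each of the 13 genes (percent, vertical axis from 0), library W2 in red (88763 keratin reads) and library W1 in blue (31 keratin reads), with 95% exact Clopper-Pearson intervals. Krt17 holds 68.2% in library W2 and Krt18 holds 77.4% in library W1.

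Levels of different keratins were compared within library W2, per length. In the order of TPM, most neighbours were apart by their counting intervals, such as Krt8 (1658 to 1724 TPM) and Krt14 (1173 to 1233 TPM). Krt42 (70.6 to 86.9 TPM) and Krt23 (65.0 to 80.5 TPM) overlapped, and so did Krt25 (2.27 to 5.49 TPM), Krt10 (2.03 to 5.03 TPM) and Krt71 (0.82 to 2.95 TPM). Type I keratins summed to 15719 TPM and type II keratins to 2278 TPM, a ratio of 6.90. By TPM, most of the excess of type I rested on 1 gene. Without Krt17, type I summed to 2924 TPM and the ratio was 1.28. Reads fell on 10 of 28 type I genes and on 3 of 26 type II genes, namely Krt8 with 74.2% of type II TPM, Krt5 with 25.7% and Krt71 with 0.0724%. In library W1, type I keratins had 30 reads and type II keratins had 1.

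Known pairs were unequal by these levels. Krt14 was 2.06 times Krt5 in library W2 (interval 1.97 to 2.14), and Krt5 was 1.71 times Krt15 (1.61 to 1.81). Krt8 was 1.70 times Krt18 in library W2 (1.64 to 1.76), against 0.0307 times in library W1 (0.00074 to 0.188). In the other pairs the type II partner was at 0 wherever the type I partner had reads. These were Krt7 with Krt19, Krt6a with Krt16, Krt6a and Krt6b with Krt17, and Krt1 and Krt76 with Krt10. Krt4 and Krt13, a pair of internal stratified epithelia, were both at 0.

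These ratios depend on how much of each transcript is found in no other gene. A 50-mer is called gene-own here if no listed transcript of another gene holds it. The main transcript of Krt14 has 1412 gene-own 50-mers of 1649, and Krt14 shares 188 50-mers with Krt16 and 55 with Krt17. Krt8 has 1395 of 1909, with 514 shared with the pseudogene Krt8-ps, which had 17.0 TPM in library W2 and 0 in library W1. Krt5 has 1965 of 2148 and Krt18 has 1378 of 1388. Expressed as reads per 1000 gene-own 50-mers of library W2, Krt17 stood at 41981, Krt8 at 7239, Krt14 at 4412, Krt18 at 3165, Krt5 at 1996 and Krt15 at 1084. On this scale these 6 genes kept the order they had by TPM. Krt16, with 946 gene-own 50-mers of 1516, came next at 1057. On this scale it was close to Krt15, while in TPM they stood at 209 and 343. Krt17 exceeded Krt14 by 9.51 times on this scale and by 10.6 times in TPM. Krt14 exceeded Krt5 by 2.21 times on this scale and by 2.06 times in TPM, and Krt8 exceeded Krt18 by 2.29 times on this scale and by 1.70 times in TPM. The ratio of type I over type II was 5.65 on this scale. Only 452 of the Krt14 50-mers are in no other listed transcript at all, because most of the rest occur in the second Krt14 transcript, which had 26 reads in library W2. Per 1000 of these stricter 50-mers, Krt14 stood at 13783 reads in library W2, above Krt8 at 7239, so the order changed. Krt17 then exceeded Krt14 by 3.05 times, and Krt14 exceeded Krt5 by 6.90 times. Were reads that match both transcripts left out of the counts, Krt14 would be undercounted, but no source used here gives the counting rule for shared reads.

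**Figure D3:**
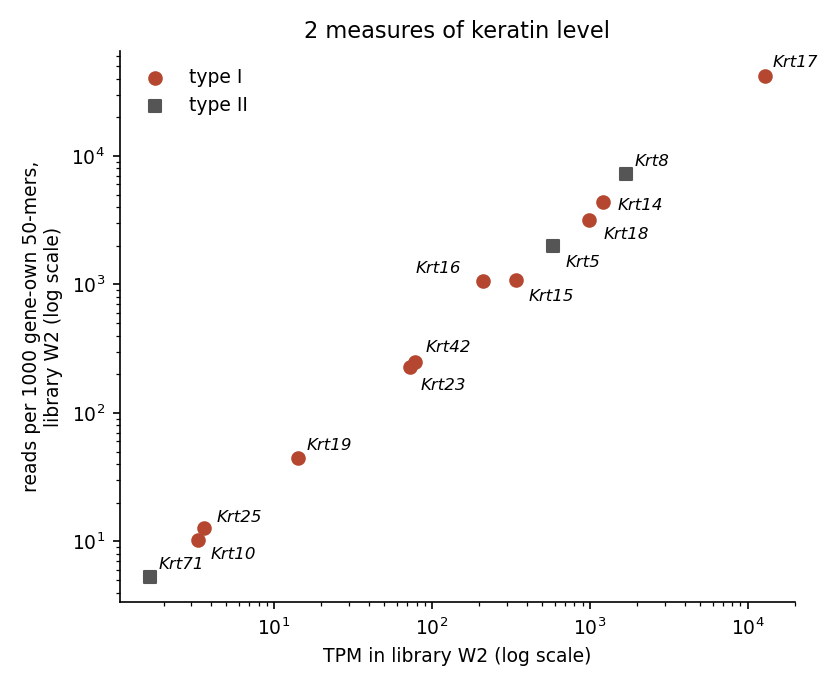
TPM in library W2 (horizontal log axis) against reads per 1000 gene-own 50-mers of the main transcript in library W2 (vertical log axis) for the 13 keratin genes with reads, type I as circles and type II as squares. Krt17 is highest on both axes, with 41981 reads per 1000 gene-own 50-mers at 12795 TPM, and Krt71 is lowest on both.

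Sequence shared with other genes varied among the genes listed at 0. Of the 41, 40 have a transcript with at least 1000 gene-own 50-mers, and the other, Krt88, has 853. Krt6a shares 972 of 2415 50-mers with Krt6b, its near copy at 97.8% coding identity. The protein-coding transcript of Krt6a shares 1103 of 2229 50-mers with other genes, that of Krt6b 1095 of 2186 and that of Krt86 828 of 1914. Krt6a has up to 1266 gene-own 50-mers in a transcript, one with a retained intron, against 1091 in Krt6b. By the stricter count of 50-mers in no other listed transcript of any gene, 32 of the 41 have a transcript with at least 1000 and 4 have none with 500. The level of 3 reads lay between 0.240 and 1.09 TPM in library W2 and between 0.242 and 1.10 TPM in library W1. A count of 0 allows somewhat higher levels. Among the 41, upper limits of the exact counting intervals ran from 0.295 TPM (Krt7) to 1.34 TPM (Krt88) in library W2. In library W1 they ran from 0.297 to 1.35 TPM for the same genes. These limits use full transcript length, and would be higher if reads of shared sequence were left out of the counts.

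Reads of antisense genes stand beside several type II keratins. Gm44323, a transcript of 129 bases whose 80 50-mers are all antisense to Krt5, had 1515 TPM in library W2 from 596 reads and 0 in library W1. Gm44342, also of 129 bases and antisense to both Krt6a and Krt6b, had 43.2 TPM in library W2 from 17 reads and 0 in library W1, and Gm49428, antisense in part to Krt6a, had 12.0 TPM in library W2 from 28 reads and 0 in library W1. Gm36026, which overlaps Krt8 by 53 50-mers, had 129 TPM in library W2 and 0 in library W1. Krt5 itself had 3923 reads in library W2. The library kit is made to keep strand. No source used here says whether strand was kept through the cDNA amplification or used in the counting. Reads from the overlapping stretches therefore cannot be assigned to a strand here. Most of each keratin lies outside them, with 1885 of 2148 Krt5 50-mers and 1342 of 1909 Krt8 50-mers found in no other listed transcript on either strand.

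On the chromosome, most of the reads lay at 1 end of each keratin cluster. The type I genes other than Krt18 lie on mouse chromosome 11 between 99232761 and 100269871 on GRCm38, a span of 1.04 Mb with 27 genes, of which 9 had reads. The 26 type II genes and Krt18 lie on chromosome 15 between 101347444 and 102032027, a span of 0.685 Mb, of which 4 had reads. The last 4 genes of the chromosome 11 cluster, Krt14, Krt16, Krt17 and Krt42, all had reads in library W2, and so did the adjacent pair Krt15 and Krt19. The last 2 genes of the chromosome 15 cluster are Krt8 and Krt18, a type II and a type I gene side by side. The gene Krt17 itself (ENSMUSG00000035557.9) spans chr11:100256217-100261029 on the minus strand. Krt5 (ENSMUSG00000061527.7) spans chr15:101707070-101712898 on the minus strand. No test of this order was made.

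**Figure D4:**
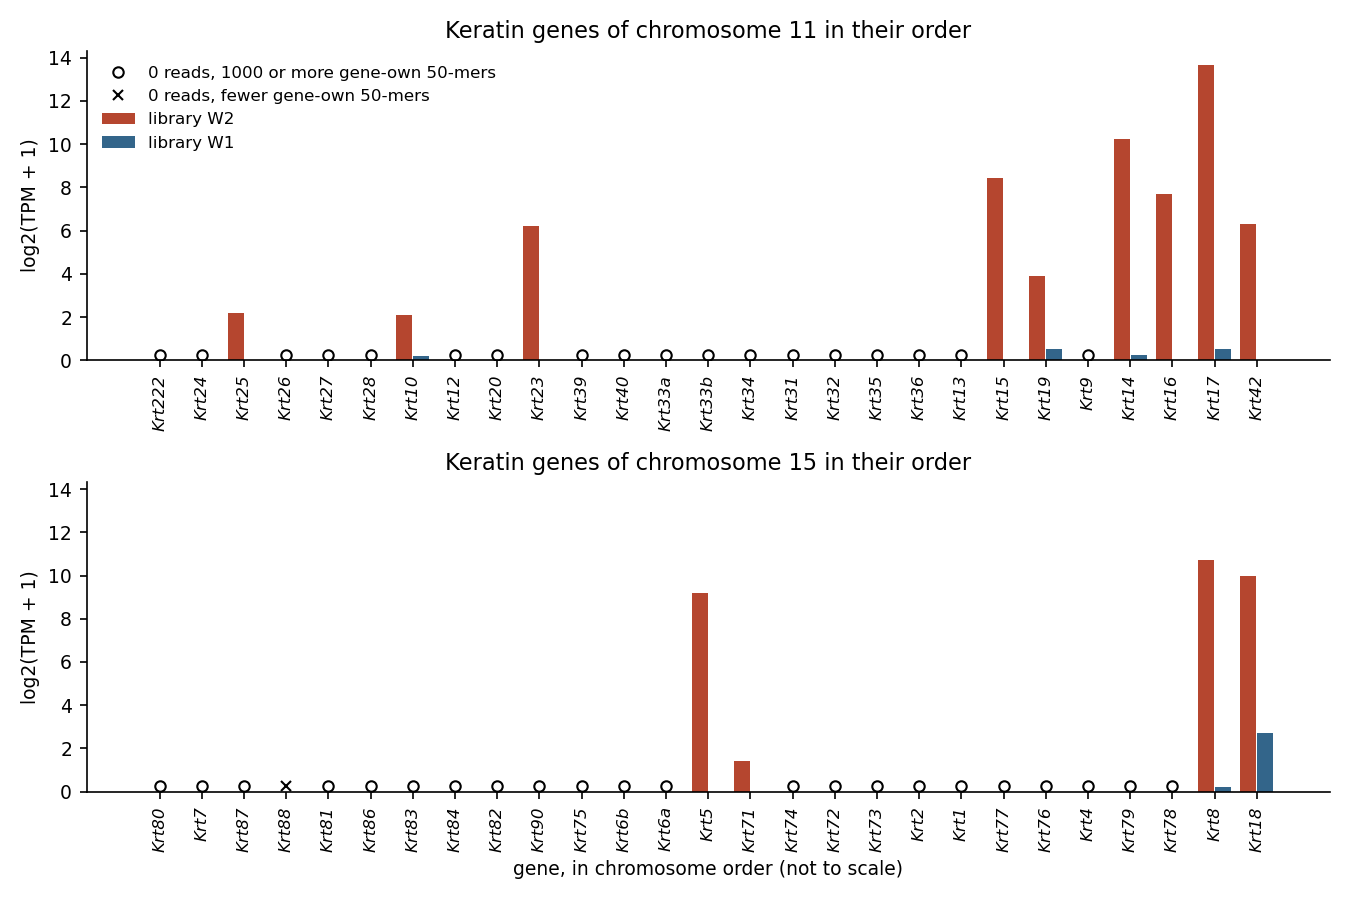
log2(TPM + 1) of the keratin genes of chromosome 11 (top) and chromosome 15 (bottom) in their order along the chromosome, library W2 in red left of library W1 in blue. Open circles mark genes with 0 reads in both libraries and 1000 or more gene-own 50-mers, and the cross marks Krt88, with 0 reads and fewer. The last 4 genes of chromosome 11 and the last 2 of chromosome 15 have reads in library W2.

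Promoter sequence was read from RefSeq on GRCm38.p6, where 36 of the 54 genes had an entry, with 37 promoters. The letters TATAAA, on the gene's strand within the 50 bases before the start, occurred in 15 of the 37 keratin promoters, which is 40.5%, against 2.63% of all 32851 promoters. They occurred in 3 of 9 promoters of genes with reads, those of Krt10, Krt25 and Krt71, the 3 lowest read members, and in 12 of 28 promoters of genes listed at 0. Krt15, Krt16, Krt17, Krt19, Krt6a and Krt6b are not among the entries. Among genes with reads, the entries of Krt14, Krt8, Krt42 and Krt18 start 1518, 140, 80 and 36 bases from their M21 starts, and the others within 17 bases. The starts of the Krt14, Krt8 and Krt18 entries lie inside their M21 genes, and that of the Krt42 entry lies before its M21 gene. Promoters of genes with reads are therefore not all placed at the M21 start. The 60 bases before the start of the entry are shown for Krt10, Krt25 and Krt71 and for Krt5 and Krt18, with TATAAA in capitals.
Krt10 (chr11:99389365-99389424, minus strand): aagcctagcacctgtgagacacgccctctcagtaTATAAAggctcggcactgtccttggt
Krt25 (chr11:99322952-99323011, minus strand): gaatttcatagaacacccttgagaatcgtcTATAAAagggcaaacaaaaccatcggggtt
Krt71 (chr15:101743098-101743157, minus strand): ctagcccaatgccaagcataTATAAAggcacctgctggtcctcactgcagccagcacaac
Krt5 (chr15:101712906-101712965, minus strand): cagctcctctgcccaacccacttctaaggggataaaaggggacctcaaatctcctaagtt
Krt18 (chr15:102028156-102028215, plus strand): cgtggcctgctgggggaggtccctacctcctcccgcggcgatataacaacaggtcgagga
Krt5 and Krt18 lack these exact letters in this window. On both strands of the whole 300-base promoters, TATAAA occurred in 51.4% of keratin promoters against 13.6% of all promoters, in 5 of 9 for keratins with reads, Krt8 and Krt42 among them, and in 14 of 28 for keratins at 0. The letters TGANTCA, an AP-1 site with N for any base, occurred in 5.41% of keratin promoters against 7.81% of all promoters. A match or its absence describes letters only.

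Genes around keratin filaments were compared from a list of 28 genes of desmosomes, hemidesmosomes, and keratin linkers and the cornified envelope. Not all of them anchor filaments. Of these, 14 passed the filter, 10 of them past 2-fold toward library W2, 1 past 2-fold toward library W1 and 3 within 2-fold. Of the 14, 7 were at 0 in library W1 and so reached 2-fold by construction, and over all compared genes 32.9% were called toward library W2 and 34.7% toward library W1. With a pseudocount of 5 TPM the 10 became 6. Among the 10, Pkp3 rested on 2 reads and Cd151 on 4 reads in library W2. Of the 28 genes, 8 were at 0 in both libraries and 20 were at 0 in library W1. The median log2 ratio of the 14 that passed the filter was 1.84. Below the filter were Dsp, at 0.92 TPM in library W2 and 0 in library W1, and Plec, at 0.33 and 0.31 TPM. Itgb4 was at 0 in both. Plec has 22 listed transcripts and Itgb4 has 10, none with more than 443 and 349 50-mers found in no other listed transcript. Their low values could thus reflect how shared reads were counted, which was not tested. The hemidesmosomal genes summed to 183 TPM in library W2 and 150 TPM in library W1. Sfn, the 14-3-3 sigma protein of stratified epithelia, stood at 5297 TPM in library W2 and 6.34 TPM in library W1, a ratio of 835 with an interval of 588 to 1229. Perp, a tetraspan protein of desmosomes, stood at 633 TPM in library W2 and 0 in library W1, at least 1249-fold higher in library W2. The desmosomal plaque gene Pkp1 stood at 74.4 TPM and the desmosomal cadherin gene Dsc3 at 13.9 TPM in library W2, each at 0 in library W1, at least 351-fold and 74.8-fold higher in library W2. Dsg2, the desmoglein of simple epithelia, went the other way, at 39.0 TPM in library W2 and 171 TPM in library W1, 4.39-fold higher in library W1 (4.04 to 4.77).

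Filament genes of other classes were mixed. Of 16, 6 passed the filter, with 3 higher in library W2, 2 higher in library W1 and 1 within 2-fold, against the same shares over all genes. One of the 2, Nefh, was at 0 in library W2. Vim, the filament protein of mesenchymal and endothelial cells, stood at 0.87 TPM in library W2 from 3 reads and at 7.33 TPM in library W1 from 56 reads. Des, the filament protein of muscle, stood at 35.4 TPM in library W2 and 3.49 TPM in library W1, a ratio of 10.1 with an interval of 7.05 to 15.1. Des was named after its values were seen.

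**Figure D5:**
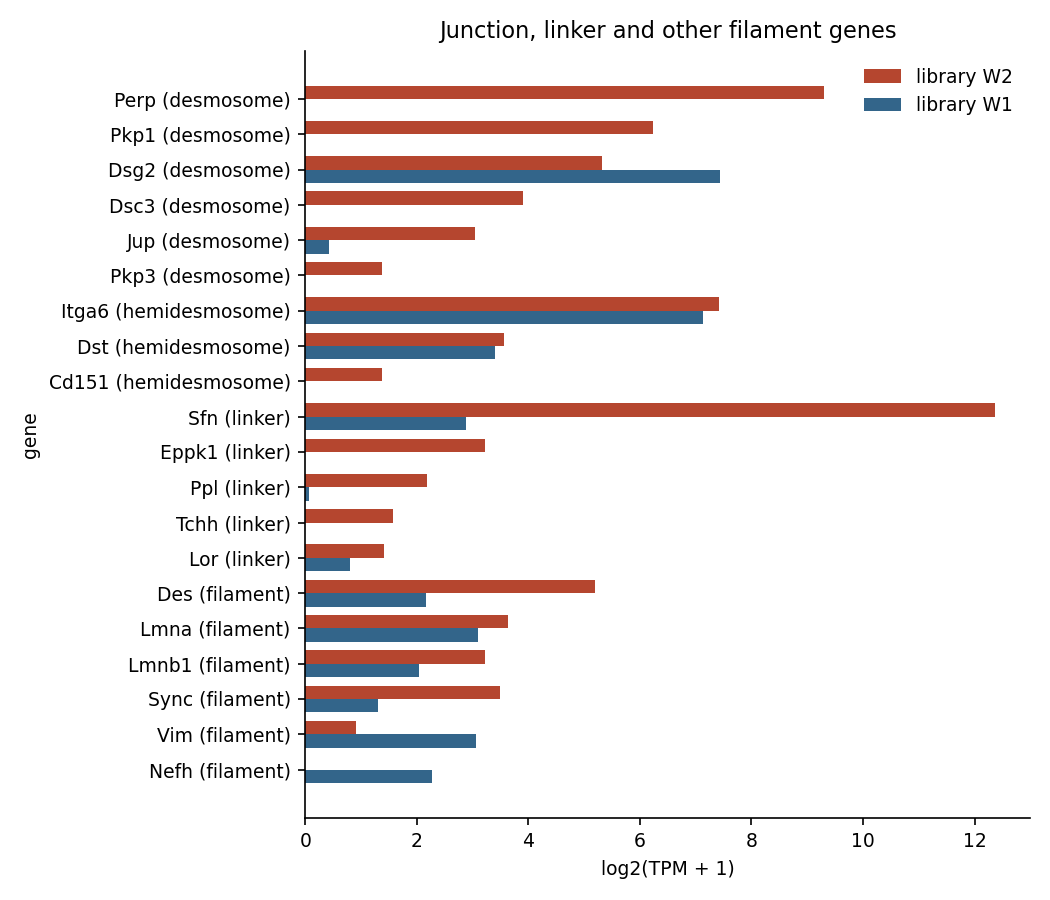
log2(TPM + 1) of the 14 junction, linker and envelope genes and 6 other filament genes that passed the filter, library W2 in red above library W1 in blue. Sfn and Perp are the longest bars of library W2, and Dsg2 and Vim are longer in library W1.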

How the data were processed

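The authors deposited TPM and FPKM per transcript for 137767 mouse transcripts in both libraries. The submitters' processing notes name Bowtie 0.12.2 and the builds mm8 and GRCm38 without roles. No source used here names the counter, its annotation or how it treated strand and reads shared between transcripts. Genes with several listed transcripts, Vim among them, could therefore be undercounted, which was not tested. By identifier, 137654 transcripts matched GENCODE M21 on GRCm38, and gene values are sums over listed transcripts. Reads were recovered from deposited FPKM times length, which fell on whole multiples of 1 read within 0.1 read for 98.07% of transcripts above 0 in library W2 and 98.47% in library W1. Ratios are log2(TPM + 1) of library W2 over library W1, taken where either library reached 1 TPM and called at 2-fold, which understates ratios of low genes. A library with 0 reads on a gene got a floor of 3 reads, and folds over this floor leave out the counting error of the other library. Intervals are exact at 95% and rest on reads. A 50-mer is gene-own if no listed transcript of another gene holds it on the same strand. The planned protein identity was replaced by coding sequence identity, aligned with Biopython 1.88. Members, lists and alternatives were chosen with earlier results of these data known. Keratins at 1 TPM or more were all named, and up to 4 partner genes per direction plus Vim. Pkp3, Cd151, Dsp, Plec and Itgb4 were named in addition, to show low levels. Only read recovery and the 2-fold call were tested on simulated libraries, the call on transcripts with more expected reads than the floor. Scripts ran in Python 3.11.15 (pandas 2.3.3, numpy 2.4.6), intervals came from scipy 1.17.1 and plots from matplotlib 3.10.9.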

Additional observations from a re-analysis of the deposited data

How the results depend on the processing

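No paired analysis was possible because each library is a single unassigned sample without replicates. Other pseudocounts (0.1 and 5 TPM), filters, units, transcript choices and scalings were tried, and the alternative without Gm23935, the counts per 50-mer and the sum without Krt17 were chosen after seeing the data. No keratin changed direction. With a pseudocount of 5 TPM, 10 of the 13 keratins stayed past 2-fold, and the log2 ratios of Krt10, Krt25 and Krt71 were 0.68, 0.79 and 0.41. The partner genes higher in library W2 were 6 in place of 10. The median log2 ratio of the keratins, 7.26, was 9.62 with 0.1 TPM, 5.42 with 5 TPM and 6.91 without Gm23935. Leaving out Gm23935 moved the median of all genes to -0.37, against 0.07, and moved the log2 ratios of single keratins by -0.35 to 0.06. The summed keratin level was 1.80% of TPM in library W2, 2.34% of counted reads, 2.42% without mitochondrially encoded and ribosomal protein genes and 1.88% without Gm23935. In library W1 it was 0.000688% of TPM and 0.00101% of counted reads. The ratio of type I over type II in library W2 was 6.90 by TPM, 5.33 in counted reads not divided by length, 5.65 per gene-own 50-mer, 6.77 per 50-mer in no other listed transcript and 1.28 without Krt17. Under the other alternatives, 127 log2 ratios of single keratins stayed past 2-fold in the same direction, and 65 summary values moved by no more than the counting interval, or by no more than 1.5 times for counts of genes. Depth limits library W1, where 31 keratin reads were counted.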
